A study of Mus musculus with 8 samples.

Results

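The interleukin-1 (IL-1) family and inflammasome genes described here are 10 genes chosen by name from a deposited RNAseq read count table of 54532 genes. They are the ligands *Il1a*, *Il1b* and *Il18*, the antagonist *Il1rn*, the receptor genes *Il1r1*, *Il1rap* and *Il1r2*, and the inflammasome genes *Nlrp3*, *Pycard* and *Casp1*. All 10 were found in the table, and all 10 averaged 10 counts or more over the 8 libraries, the filter for testing. The libraries are of FACS-sorted GFP+ (mG+) primary cells from female mice aged 8 months. Every mouse carried Tie2e-cre, a Cre transgene driven by a promoter that is active in endothelial cells (EC) and known also to mark part of the blood lineage, and mTmG, a reporter that turns from red to green where Cre has acted. WT mice had the genotype Tie2e-cre; TERT+/+; mTmG, and KO mice had Tie2e-cre; TERTfl/fl; mTmG. The cells came from subcutaneous adipose tissue (SAT) of mice on a high fat diet (HFD), and from SAT, visceral adipose tissue (VAT) and skeletal muscle of mice on chow. There is 1 WT and 1 KO library in each of these 4 pairs, and whether a library pooled several mice is not stated.

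IL-1α and IL-1β are inflammatory cytokines that act through the same receptor, which is formed by IL1R1 and its accessory chain IL1RAP. IL1RN blocks that receptor, and IL1R2 binds the ligands without signalling and so acts as a decoy. IL-1β and IL-18 are made as precursors that caspase-1 cuts. Caspase-1 is activated on inflammasomes, protein assemblies that a sensor such as NLRP3 builds with the adaptor ASC, the product of *Pycard*. In adipose tissue and muscle, macrophages, monocytes and neutrophils are well known sources of IL-1β, and EC respond to it by producing chemokines and adhesion molecules.

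Some libraries stood apart or went against their labels, and the values below carry these limits. Library totals lay between 6214269 and 18855772 counts, the smallest in the WT library of SAT on HFD, where a single noncoding RNA gene, *Gm26917*, took 9.72% of all counts. Of 3548 genes that KO of the same pair showed at 60 to 200 counts, 7.75% were at 0 in WT, and 1.93% of 4035 the other way. In SAT on chow, 2.88% of 3510 such genes of KO were at 0 in WT, and 0.0365% of 2737 the other way. The HFD-fed pair of SAT had 114 *Tert* counts in WT and 0 in KO, the chow-fed pair 70 and 11, and muscle 24 and 7. VAT had 3 and 9, where the order is opposite to the labels. In SAT on chow, the nuclear RNA *Malat1* was at 299 CPM (the usual unit of counts scaled to library depth) in WT and 6005 CPM in KO, against 2176 to 5186 CPM in the other 6 libraries. All 12 endothelial markers had counts in every library, with sums of 330 to 668 CPM in the 4 SAT libraries and 1676 to 2380 CPM in the VAT and muscle libraries. Markers of leukocytes and stromal cells were also present in every library. Sums of 7 B cell markers were 208 to 2254 CPM, those of 8 T cell markers 192 to 3618 CPM, and those of 10 stromal markers 714 to 3479 CPM. The other lists had sums of 98.2 to 396 CPM (mast cell and ILC2), 57.6 to 624 CPM (mural), 132 to 1123 CPM (adipocyte), 6.65 to 253 CPM (epithelial) and 8.33 to 124 CPM (myogenic). In such bulk libraries, fewer cells of a type and less RNA per cell cannot be told apart.

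*Il1b* (ENSMUSG00000027398) lies on chromosome 2 at positions 129364570 to 129371139 of GRCm38, on the minus strand, and *Il1a* (ENSMUSG00000027399) lies at 129299610 to 129309972 on the same strand. The 2 genes are 54597 bases apart. *Il1rn* (ENSMUSG00000026981) is on chromosome 2 at 24336853 to 24351494, and *Il18* (ENSMUSG00000039217) is on chromosome 9 at 50554827 to 50581840. The receptor genes *Il1r2* (ENSMUSG00000026073, 40074079 to 40125231) and *Il1r1* (ENSMUSG00000026072, 40225080 to 40317257) are neighbours on chromosome 1, with 99848 bases between them. *Il1rap* (ENSMUSG00000022514) is on chromosome 16 at 26581704 to 26730117. *Nlrp3* (ENSMUSG00000032691) is on chromosome 11 at 59541568 to 59566956, *Casp1* (ENSMUSG00000025888) on chromosome 9 at 5298517 to 5307265, and *Pycard* (ENSMUSG00000030793) on chromosome 7 at 127989708 to 127993867.

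The promoter windows of *Il1b* and *Il1a* are shown because these neighbouring ligand genes had different patterns across the tissues, and those of *Nlrp3* and *Il1rn* because both genes were higher with *Il1b* in VAT than in SAT. The sequences are from RefSeq on GRCm38.p6, 5′ to 3′ on the strand of the gene, with 250 bases before the start site and 50 after it. Capitals mark matches, on either strand, to the NF-kB motif, the C/EBP motif TTNNGNAA, the AP-1 motif TGANTCA, the PU.1 motif AGGAAGT and the TATA motif TATAAA. For *Il1rn* and *Nlrp3*, which have 3 and 2 windows, the one nearest to the gene's first base in the table is shown.
Il1b, chr2:129371090-129371389, minus strand: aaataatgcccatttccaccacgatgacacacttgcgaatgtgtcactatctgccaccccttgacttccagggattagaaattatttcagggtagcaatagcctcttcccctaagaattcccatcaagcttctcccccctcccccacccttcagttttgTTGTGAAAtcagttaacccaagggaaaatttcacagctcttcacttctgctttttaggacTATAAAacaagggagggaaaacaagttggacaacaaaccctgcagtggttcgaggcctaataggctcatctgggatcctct
Il1a, chr2:129309923-129310222, minus strand: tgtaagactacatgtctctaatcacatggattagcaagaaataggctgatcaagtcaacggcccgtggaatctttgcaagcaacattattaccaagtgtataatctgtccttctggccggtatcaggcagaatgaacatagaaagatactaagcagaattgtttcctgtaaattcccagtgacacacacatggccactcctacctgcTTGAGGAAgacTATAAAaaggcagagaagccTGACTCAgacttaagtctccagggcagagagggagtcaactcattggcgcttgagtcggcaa
Nlrp3, chr11:59541319-59541618, plus strand: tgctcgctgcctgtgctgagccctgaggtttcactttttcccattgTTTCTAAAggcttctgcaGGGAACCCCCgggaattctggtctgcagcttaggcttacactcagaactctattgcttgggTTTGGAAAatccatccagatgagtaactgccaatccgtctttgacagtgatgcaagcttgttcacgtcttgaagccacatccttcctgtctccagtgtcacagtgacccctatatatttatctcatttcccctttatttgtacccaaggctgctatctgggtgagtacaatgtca
Il1rn, chr2:24336610-24336909, plus strand: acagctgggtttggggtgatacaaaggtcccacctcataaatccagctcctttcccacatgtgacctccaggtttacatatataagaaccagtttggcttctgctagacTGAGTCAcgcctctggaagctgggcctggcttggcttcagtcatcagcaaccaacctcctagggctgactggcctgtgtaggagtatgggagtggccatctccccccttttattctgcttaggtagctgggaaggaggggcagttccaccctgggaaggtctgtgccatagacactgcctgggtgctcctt

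The windows of *Il1b* and *Il1a* each hold TATAAA, 31 and 32 bases before the start site, and a C/EBP match, 91 and 43 bases before it. *Il1a* also holds an AP-1 match 12 bases before the start, and *Il1rn* has one 141 bases before it. The *Nlrp3* window holds an NF-kB match 186 bases before the start and C/EBP matches 204 and 125 bases before it. In these 4 windows no match overlaps a match of another motif. Of all 32851 windows of this length, 4.51% hold the NF-kB motif, 40.7% the C/EBP motif, 7.81% the AP-1 motif, 9.35% the PU.1 motif and 13.6% TATAAA. Among the 10 genes, counting all 14 of their windows, 2 hold the NF-kB motif, 6 the C/EBP motif, 2 the AP-1 motif, 1 the PU.1 motif and 4 TATAAA. The windows of *Il1r2*, *Il1rap* and *Casp1* hold none of the 5 motifs.

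*Il1b*, which encodes the main secreted IL-1, was high in VAT and muscle and low in SAT. In VAT there were 4801 counts in the library labelled WT and 6995 in the one labelled KO (533 and 511 CPM), and in muscle 8891 and 4990 (546 and 368 CPM). In SAT it had 847 and 1830 counts on chow (52.4 and 113 CPM), and 458 and 476 on HFD (66.2 and 36.8 CPM), again WT and then KO. All 4 SAT libraries lay below all 4 libraries of VAT and muscle, the ranges of VAT and muscle overlapped, and so did those of SAT on chow and on HFD. Per kilobase of the gene length in the table, *Il1b* had the highest level of the 10 genes in 7 of 8 libraries. In the exception, WT SAT on chow, *Casp1* was at 31.0 CPM per kilobase and *Il1b* at 27.5.

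*Il1a*, which encodes the cell-associated IL-1, was the scarcest of the 3 ligands outside VAT on the scale of CPM per kilobase. VAT had 386 counts in the library labelled WT and 340 in the one labelled KO (42.9 and 24.8 CPM), above every other library. Muscle had 61 and 9 counts (3.74 and 0.663 CPM) and SAT on chow 17 and 81 (1.05 and 5.02 CPM), 2 ranges that overlap. SAT on HFD had 2 counts in WT and 0 in KO, at or below the floor of 3 counts, which corresponds to 0.434 CPM in WT and 0.232 CPM in KO. On the scale of CPM per kilobase, *Il1a* was the lowest of the 10 genes in 5 of 8 libraries.

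*Il18* differs from the other ligands in that its level was low everywhere except in 1 library. KO SAT on HFD had 138 counts (10.7 CPM), while WT of that pair had 21 (3.04 CPM). The other 6 libraries held 46 to 80 counts, or 3.39 to 5.85 CPM. The 2 libraries of SAT on HFD thus enclosed the levels of all the others. Among the chow libraries, VAT (5.77 and 5.85 CPM) was above SAT (4.70 and 3.97 CPM), and SAT above muscle (3.81 and 3.39 CPM), without overlap but by little at such counts. *Il18* overlaps *Bco2* and *Tex12* on the opposite strand, which had at most 56 and 10 counts in a library, and the use of strand in counting is not given in the sources used here.

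*Il1rn*, which encodes the IL-1 receptor antagonist, followed an order of tissues without overlap. It had 1029 and 1708 counts in the VAT libraries labelled WT and KO (114 and 125 CPM) and 1084 and 484 in muscle (66.5 and 35.7 CPM). SAT on chow had 150 and 253 counts (9.28 and 15.7 CPM), and SAT on HFD had 21 and 34 (3.04 and 2.63 CPM). Each condition lay wholly below the one before it, and the highest library was 47.5-fold above the lowest.

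*Il1r2*, the decoy receptor gene, was highest in muscle. Muscle had 3546 counts in WT and 2631 in KO (218 and 194 CPM), and the VAT libraries labelled WT and KO had 357 and 459 (39.6 and 33.5 CPM). SAT had 177 and 419 counts on chow (10.95 and 26.0 CPM) and 106 and 148 on HFD (15.3 and 11.4 CPM), with the HFD values inside the chow range. Muscle was above VAT, and VAT above SAT, with no overlap. *Gm37347*, a gene of the same strand inside *Il1r2*, had up to 298 counts in a library, and reads of the 2 genes may have been split between them.

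*Il1r1*, the signalling receptor gene, varied less between tissues. The VAT libraries labelled WT and KO had 625 and 896 counts (69.4 and 65.5 CPM), above the rest. Muscle had 714 and 528 counts (43.8 and 38.9 CPM), which lay partly inside the range of SAT on chow, with 160 and 664 counts (9.90 and 41.2 CPM). SAT on HFD, with 136 and 340 counts (19.7 and 26.3 CPM), lay wholly inside it. *Il1rap*, the accessory chain gene, was close between the libraries of a pair and differed in small steps between conditions. It was at 33.5 and 33.2 CPM in muscle, 31.1 and 29.8 CPM in VAT, 18.8 and 19.7 CPM in SAT on chow, and 11.7 and 8.73 CPM in SAT on HFD (81 to 545 counts). These 4 ranges do not overlap.

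*Nlrp3*, the sensor gene, had its highest levels in VAT, where the libraries labelled WT and KO had 3545 and 5689 counts (394 and 416 CPM). Muscle had 1840 and 928 counts (113 and 68.4 CPM). SAT had 150 and 700 counts on chow (9.28 and 43.4 CPM) and 100 and 165 on HFD (14.5 and 12.7 CPM). VAT was above muscle and muscle above SAT without overlap, and the highest library was 44.8-fold above the lowest. The genes of the other inflammasome parts were more even. *Casp1*, the protease gene, ranged over 6.88-fold, from 10.2 and 16.2 CPM in KO and WT SAT on HFD to 56.7 and 70.1 CPM in the VAT libraries labelled WT and KO. SAT on chow had 749 counts of it in WT and 365 in KO (46.4 and 22.6 CPM), on both sides of muscle with 487 and 452 (29.9 and 33.3 CPM). *Pycard*, the adaptor gene, ranged over 2.23-fold. It was at 44.7 and 28.2 CPM in SAT on chow, 36.4 and 35.7 CPM in VAT, 27.8 and 20.0 CPM in SAT on HFD, and 24.1 and 22.6 CPM in muscle (192 to 722 counts), with VAT inside the range of SAT on chow and muscle inside that of SAT on HFD.

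**Figure D1:**
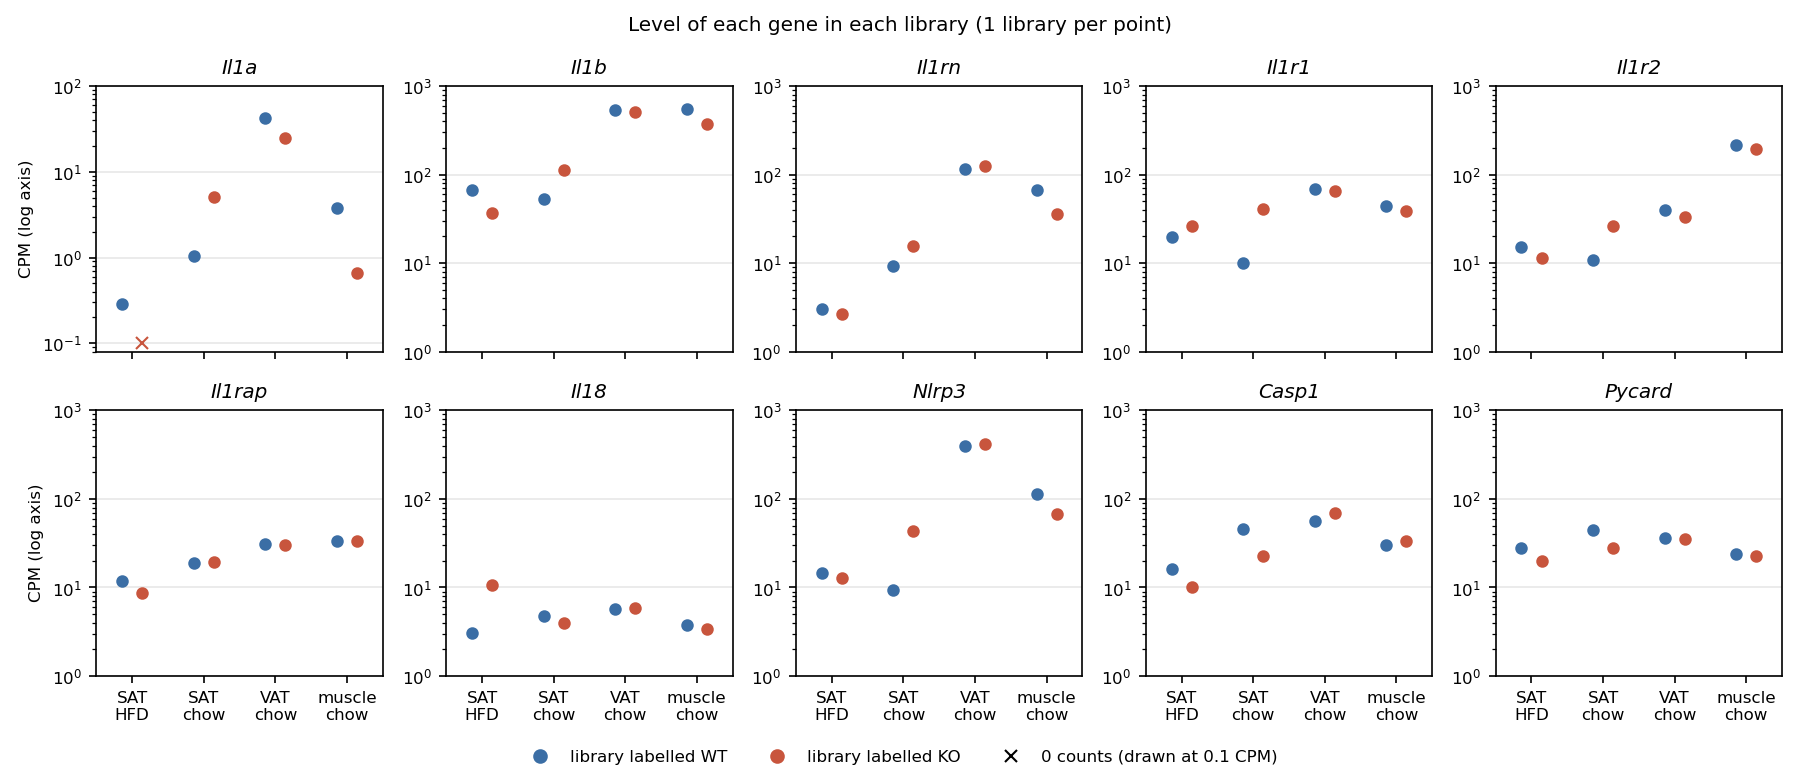
Level of each of the 10 genes in each library, in CPM on a log axis that starts lower for *Il1a*, with the library labelled WT in blue and the library labelled KO in red. *Il1b*, *Il1rn* and *Nlrp3* are above SAT in all VAT and muscle libraries, *Il1r2* reaches 218 and 194 CPM in muscle, and *Pycard* stays between 20.0 and 44.7 CPM.

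Ratios of 2 genes within a library do not depend on the scaling between libraries, and they are given here per gene length with a 95% exact counting interval. The decoy receptor *Il1r2* exceeded the signalling receptor *Il1r1* by 16.6-fold in both muscle libraries (intervals 15.3 to 18.0 in WT and 15.1 to 18.3 in KO). In the other 6 libraries the ratio lay between 1.45 and 3.69. The muscle ratio is therefore set apart from all other libraries by more than counting error. The sensor *Nlrp3* was 10.1-fold and 10.9-fold above the adaptor *Pycard* in the VAT libraries labelled WT and KO, and 4.39-fold and 2.84-fold above it in WT and KO muscle. In SAT it was 0.195 times *Pycard* in WT and 1.44 times in KO on chow, and 0.488 and 0.597 times on HFD. *Nlrp3* was thus the less abundant of the 2 per length in 3 of the 4 SAT libraries. The antagonist *Il1rn* was below *Il1b* in every library. *Il1b* exceeded it 13.5-fold and 11.9-fold in the VAT libraries labelled WT and KO, and 23.8-fold and 29.9-fold in muscle. In SAT the excess was 16.4-fold and 20.99-fold on chow, and 63.3-fold (40.9 to 103) and 40.6-fold (28.7 to 59.4) on HFD.

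**Figure D2:**
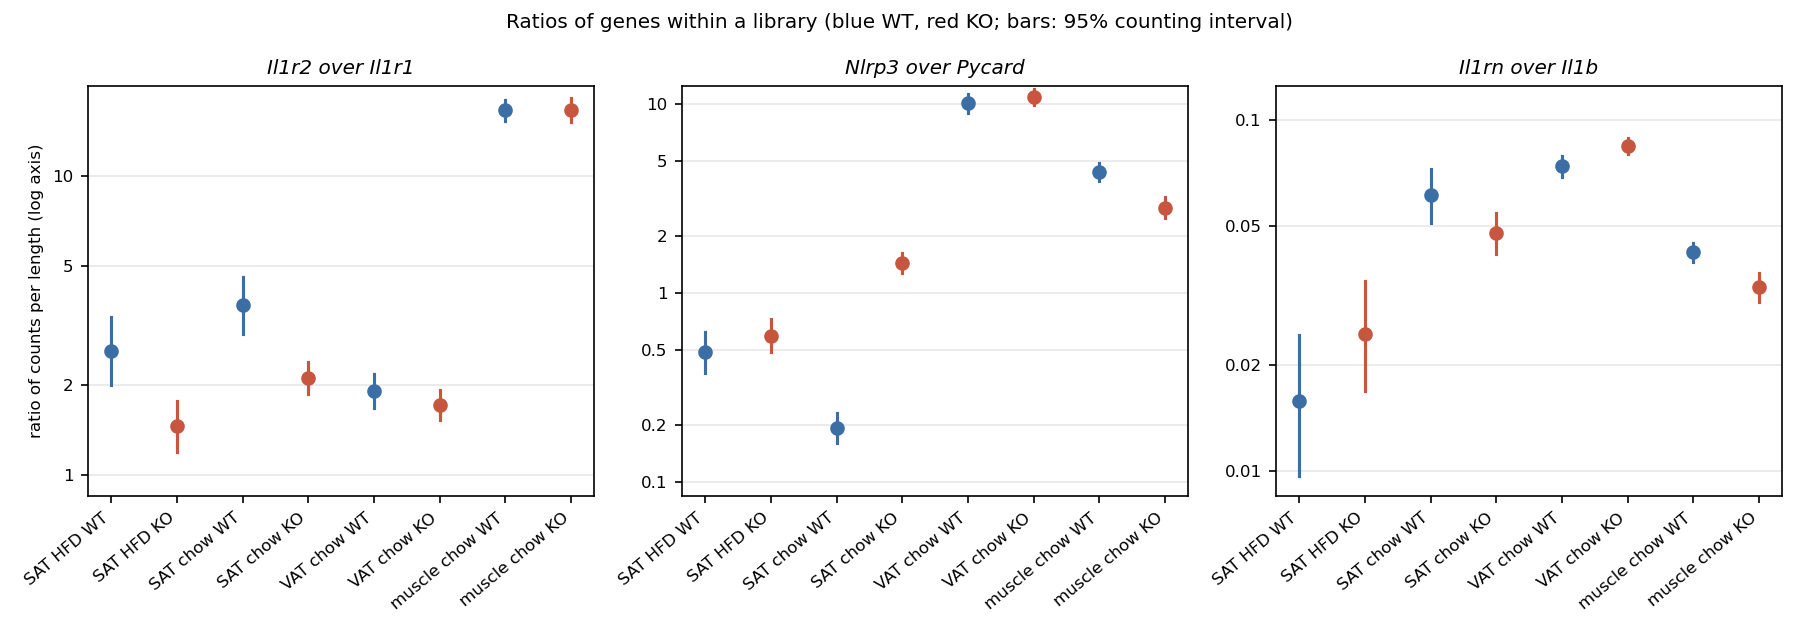
Ratio of the counts per gene length of 2 genes in each library, on log axes, with 95% counting intervals as bars, WT in blue and KO in red. *Il1r2* over *Il1r1* is 16.6 in both muscle libraries, *Nlrp3* over *Pycard* is highest in the 2 VAT libraries, and *Il1rn* over *Il1b* is lowest in SAT on HFD.

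The first comparison asks whether loss of *Tert* changed these genes within a tissue and diet. With 1 library per genotype no test is possible, so each pair gives the log2 of KO over WT CPM and a 95% interval that covers counting error only. A gene is counted as beyond 2-fold where the whole interval lies past a log2 ratio of 1 or −1, among genes that averaged 10 counts or more in that pair. These values describe the 2 libraries and not the genotypes.

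In SAT on chow, 3 of the 10 genes were beyond 2-fold higher in KO and 0 lower, among 16908 genes of which 19.1% were higher and 11.5% lower by the same rule. *Nlrp3* went from 150 to 700 counts, a log2 ratio of 2.22 (1.97 to 2.49), or 4.66-fold. *Il1a* went from 17 to 81 counts, also 2.22 (1.49 to 3.10), and *Il1r1* from 160 to 664 counts, 2.05 (1.80 to 2.31). A sensor, a ligand and a receptor gene were thus set apart, in a pair where many genes of all kinds were as far apart in that direction. *Il1b*, at 1.11 (0.996 to 1.23), and *Il1r2*, at 1.24 (0.99 to 1.51), had intervals that just failed the rule. *Il1rn* was at 0.76 (0.46 to 1.06). *Casp1* and *Pycard* differed the other way, with log2 ratios of −1.03 (−1.22 to −0.85) and −0.66 (−0.84 to −0.49), and the intervals of *Il1rap* (0.06) and *Il18* (−0.24) spanned 0. With library totals, DESeq2 size factors or the trend on gene length removed, 5 genes were beyond 2-fold in this pair. The sum of 11 neutrophil markers was 347 CPM in WT and 102 CPM in KO, with all 11 lower in KO, and that of 11 macrophage markers 937 and 501 CPM, with 10 of 11 lower. The sum of 7 monocyte markers was 1110 CPM in WT and 2260 CPM in KO, but 6 of the 7 were lower in KO, and *Nr4a1*, an immediate early gene that other cells also express, went from 296 to 1881 CPM. The sum of 8 dendritic cell markers was 547 and 1478 CPM, with 5 of 8 lower in KO and *Ccr7*, which other leukocytes also express, going from 227 to 1281 CPM. Stromal marker sums were 810 CPM in WT and 3479 CPM in KO, with all 10 markers higher in KO. Mural sums were 57.6 and 197 CPM, with 7 of 8 higher, and endothelial sums 564 and 668 CPM, with 9 of 12 higher. T cell sums were 3618 and 1316 CPM, with all 8 lower. The part of these cell types in the differences was not tested.

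In SAT on HFD, *Il18* was beyond 2-fold higher in KO, with a log2 ratio of 1.79 (1.14 to 2.55), or 3.47-fold. No member was beyond 2-fold lower, 9 of 10 had enough counts to be scored, and the background was 12.9% of 15839 genes higher and 10.9% lower. *Il1b* had a log2 ratio of −0.85 (−1.04 to −0.66), *Casp1* −0.67 (−1.04 to −0.29), *Pycard* −0.47 (−0.75 to −0.20) and *Il1r2* −0.42 (−0.79 to −0.05). Only *Il18* and *Il1r1*, at 0.42 (0.13 to 0.71), had intervals above 0. The intervals of *Il1rn*, *Il1rap* and *Nlrp3* spanned 0. The WT library of this pair is the shallow one with many genes at 0, and *Il18* had 21 counts in it.

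In VAT, 0 of the 10 genes were beyond 2-fold between the libraries labelled WT and KO, and the background was 2.4% of 16439 genes higher and 2.09% lower. *Il1a*, at −0.79 (−1.001 to −0.57), was farthest from 0. *Il1b* (−0.06), *Nlrp3* (0.08), *Il1rn* (0.13), *Casp1* (0.31) and *Il1r2* (−0.24) had intervals on 1 side of 0 at these depths, and the other 4 genes had intervals that spanned 0. In muscle, *Il1a* was beyond 2-fold lower in KO, with a log2 ratio of −2.44 (−3.69 to −1.48) from 61 and 9 counts, where 2.01% of 16967 genes were lower and 2.76% higher. *Il1rn*, at −0.90 (−1.06 to −0.74), *Nlrp3*, at −0.72 (−0.84 to −0.61), and *Il1b*, at −0.57 (−0.62 to −0.52), were also lower in KO, within 2-fold or nearly so. *Il1r2* and *Il1r1* each had a log2 ratio of −0.17, and the 4 remaining genes had intervals that spanned 0. In muscle, macrophage marker sums were 804 CPM in WT and 397 CPM in KO, with 10 of 11 markers lower in KO. Neutrophil sums were 27759 and 31712 CPM, with 8 of 11 markers higher in KO, and monocyte sums 3996 and 4827 CPM, with all 7 higher. Stromal sums were 714 and 1417 CPM in muscle and 1100 and 2349 CPM in VAT, with all 10 markers higher in the KO library of each. Mural sums were 144 and 334 CPM in muscle, with 7 of 8 higher, and 156 and 624 CPM in VAT, with all 8 higher. T cell markers were lower in KO for 7 of 8 in muscle and higher for all 8 in VAT. The part of these cell types in the ratios was not tested.

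**Figure D3:**
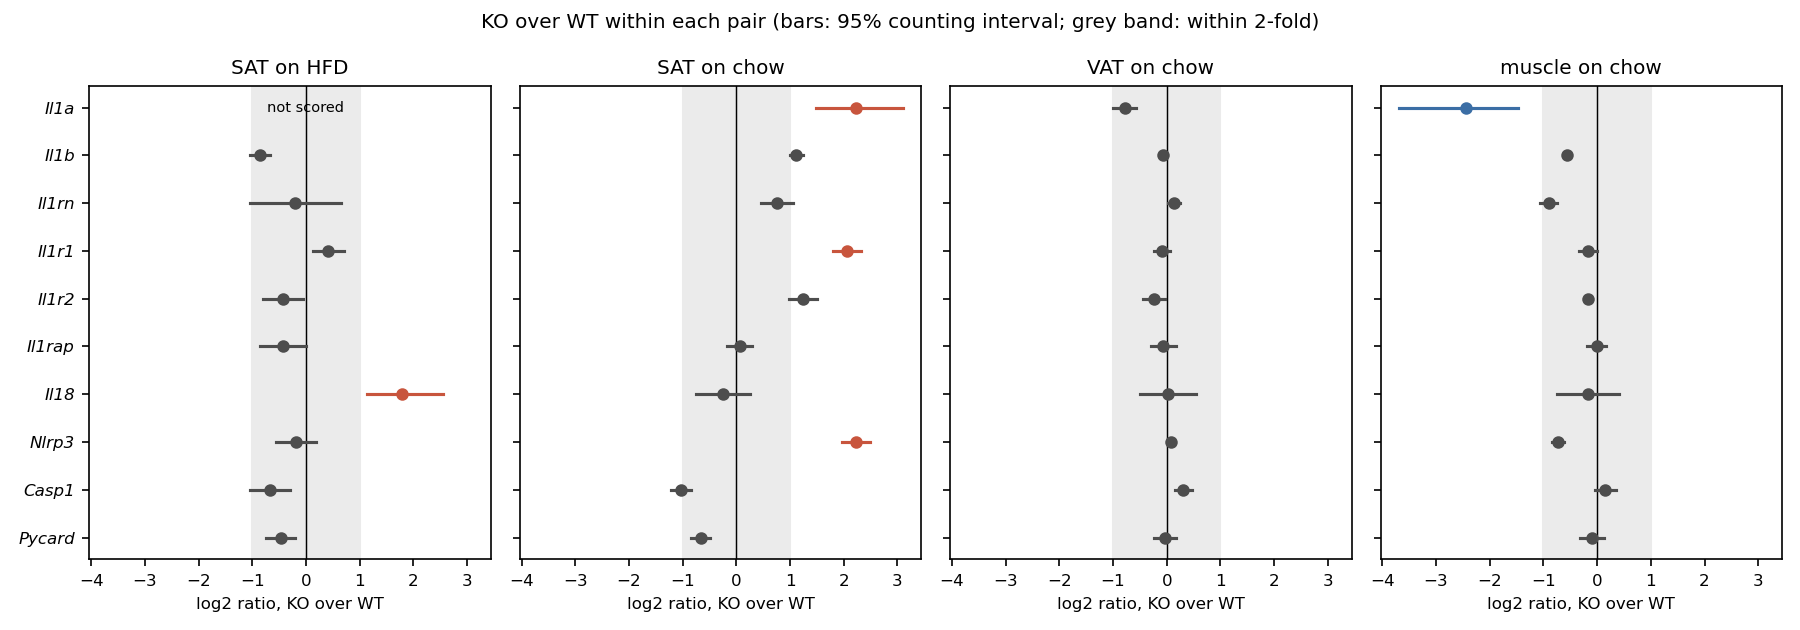
Log2 of KO over WT CPM for the 10 genes in each pair, with 95% counting intervals as bars. The grey band is within 2-fold, red marks genes beyond 2-fold higher and blue lower, and *Il1a* in SAT on HFD was not scored. The ratios of *Il1b* are −0.85, 1.11, −0.06 and −0.57 from left to right.

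Across the 4 pairs, none of the 10 genes passed the test for a shared difference between KO and WT. edgeR's quasi-likelihood test with tissue and diet as a block gave Benjamini-Hochberg adjusted p-values of 0.9996 for each of them, and 0 of 10 had an unadjusted p-value under 0.05. Among all 16971 genes, 0.00589% were called, which is 1 gene. The log2 fold changes ran from −0.71 (SE 0.944) for *Il1a* to 0.52 (SE 0.393) for *Il1r1*, with a median of −0.08, against 0.03 for all genes. DESeq2's Wald test also called 0 of the 10, and 23 of the 16971 genes. As the pairs pointed in opposite directions for several genes, the test bears only on a change that all tissues and diets share.

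The second comparison asks how the genes differ with diet in SAT. 5 of 10 genes had both HFD libraries below both chow libraries (*Il1a*, *Il1rn*, *Il1rap*, *Casp1* and *Pycard*), and 0 had both above. The same held for 26.6% of the 16971 genes, in the lower direction. None of the 10 passed the test, and 0% of all genes did. The log2 fold changes of HFD against chow were −2.15 (SE 0.463, adjusted p = 0.278) for *Il1rn*, −1.37 (SE 0.426, adjusted p = 0.497) for *Casp1* and −0.92 (SE 0.371, adjusted p = 0.523) for *Il1rap*, by edgeR's quasi-likelihood test. *Il1a*, with 2 and 0 counts on HFD, had an adjusted p of 0.497. These 4 had unadjusted p-values under 0.05. The median over the 10 genes was −0.79, and that over all genes was −0.32. By DESeq2's Wald test 2 of the 10, *Il1rn* and *Il1a*, were called lower on HFD, where that test called 361 of the 16971 genes in either direction.

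The third comparison is between tissues on chow, with genotype as a term, and it is here that genes of the set passed the test. *Nlrp3*, *Il1rn* and *Il1b* were higher in VAT than in SAT, so that a sensor, the antagonist and the main ligand rose together. *Nlrp3* was 16.4-fold higher (log2 4.03, SE 0.691, adjusted p = 0.0191), *Il1rn* 9.53-fold (log2 3.25, SE 0.451, adjusted p = 0.0111) and *Il1b* 6.21-fold (log2 2.63, SE 0.504, adjusted p = 0.0280), by edgeR's quasi-likelihood test over 2 libraries a tissue. Called were 3 of 10 higher and 0 lower, where 3.13% of the 16971 genes were called higher and 1.87% lower. For 9 of 10 genes, all but *Pycard*, both VAT libraries lay above both SAT libraries on chow, as they did for 26.6% of all genes. The median log2 fold change of the 10 genes was 1.29, against −0.13 for all genes. *Il1a* (log2 3.18, SE 1.18, adjusted p = 0.177) and *Il1r1* (log2 1.57, SE 0.558, adjusted p = 0.163) did not pass. All 3 calls were lost when either VAT library was left out, which leaves 1 library in that tissue that is assumed to vary like the others. Over all the alternatives run, the log2 fold change lay between 3.09 and 5.59 for *Nlrp3*, 2.78 and 3.87 for *Il1rn*, and 1.97 and 3.57 for *Il1b*.

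Macrophage markers were also higher in VAT than in SAT on chow, but not in muscle. In muscle their sum was 804 and 397 CPM, where *Il1b* was at 546 and 368 CPM. The sum of 11 macrophage markers was 9757 and 9614 CPM in VAT and 937 and 501 CPM in SAT on chow, with all 11 detected in every library. *Mrc1*, the mannose receptor, had 20581 and 26959 counts in VAT and 1393 and 1246 in SAT on chow. Endothelial marker sums were 2210 and 1676 CPM in VAT and 564 and 668 CPM in SAT on chow, with all 12 markers higher in both VAT libraries. Monocyte sums were 4003 and 3844 CPM against 1110 and 2260 CPM, with 5 of 7 markers higher in both VAT libraries. Of these, *F13a1* had 1772 and 1583 CPM in VAT against 69.3 and 62.1 CPM. *Ly6c2* was lower in VAT, at 69.3 and 118 CPM against 412 and 139 CPM, and *Nr4a1* was not set apart. Also higher in both VAT libraries were 6 of 7 adipocyte, 7 of 9 mast cell and ILC2, 5 of 8 dendritic cell and 5 of 11 neutrophil markers. Of these lists, 0, 0, 1 and 1 markers were lower. B cell, T cell and epithelial markers were lower in VAT for 6 of 7, 8 of 8 and 7 of 7. The part of these cell types in the calls was not tested.

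In muscle, *Il1r2* was the gene that passed. It was 11.3-fold higher than in SAT on chow (log2 3.50, SE 0.471, adjusted p = 0.0205) and 5.62-fold higher than in VAT (log2 2.49, SE 0.448, adjusted p = 0.0377), by edgeR's quasi-likelihood test. These 2 contrasts share the muscle libraries. Against SAT, 1 of 10 was called higher and 0 lower, with 1.1% of all genes higher and 0.165% lower. Against VAT, 1 of 10 was called higher and 0 lower, with 0.99% higher and 1.03% lower. *Il1b*, at 2.43 (SE 0.504, adjusted p = 0.0694), and *Il1rn*, at 2.02 (SE 0.437, adjusted p = 0.0797), were above SAT by fold changes on the log2 scale that did not pass, and *Nlrp3* was at 1.92 (SE 0.655, adjusted p = 0.278). Against VAT, *Nlrp3* was at −2.12 (SE 0.630, adjusted p = 0.168), *Il1a* at −4.08 (SE 1.20, adjusted p = 0.163) and *Il1b* at −0.20 (SE 0.472, adjusted p = 0.962). The muscle libraries did not overlap with those of SAT on chow for 5 genes that were higher and 2 that were lower (20.7% and 23.5% of all genes). They did not overlap with VAT for 2 genes that were higher and 7 that were lower (33.4% and 28.6% of all genes). Leaving out either muscle library removed both *Il1r2* calls, leaving out either VAT library removed the one against VAT, and so did DESeq2 size factors. Over all the alternatives run, the log2 fold change of *Il1r2* lay between 2.85 and 4.36 against SAT and between 2.28 and 2.73 against VAT.

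Neutrophil markers were also highest in muscle by their sum, and all 11 were higher there than in VAT and in SAT on chow. Their sum was 27759 and 31712 CPM in muscle, 1010 and 909 CPM in VAT, 347 and 102 CPM in SAT on chow, and 76.3 and 106 CPM in SAT on HFD. *Ly6g*, a defining neutrophil marker, had 1177 and 1343 counts in muscle, 4 to 10 in the other chow libraries and 0 in both libraries of SAT on HFD. Within pairs the markers and *Il1r2* differed. In SAT on chow *Il1r2* went from 177 counts in WT to 419 in KO, while all 11 neutrophil markers were lower in KO. In muscle *Il1r2* had a log2 ratio of −0.17, while 8 of 11 markers were higher in KO. All 12 endothelial markers and 4 of 7 monocyte markers were also higher in both muscle libraries than in SAT on chow, and 0 were lower. The part of these cell types in the level of *Il1r2* was not tested.

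**Figure D4:**
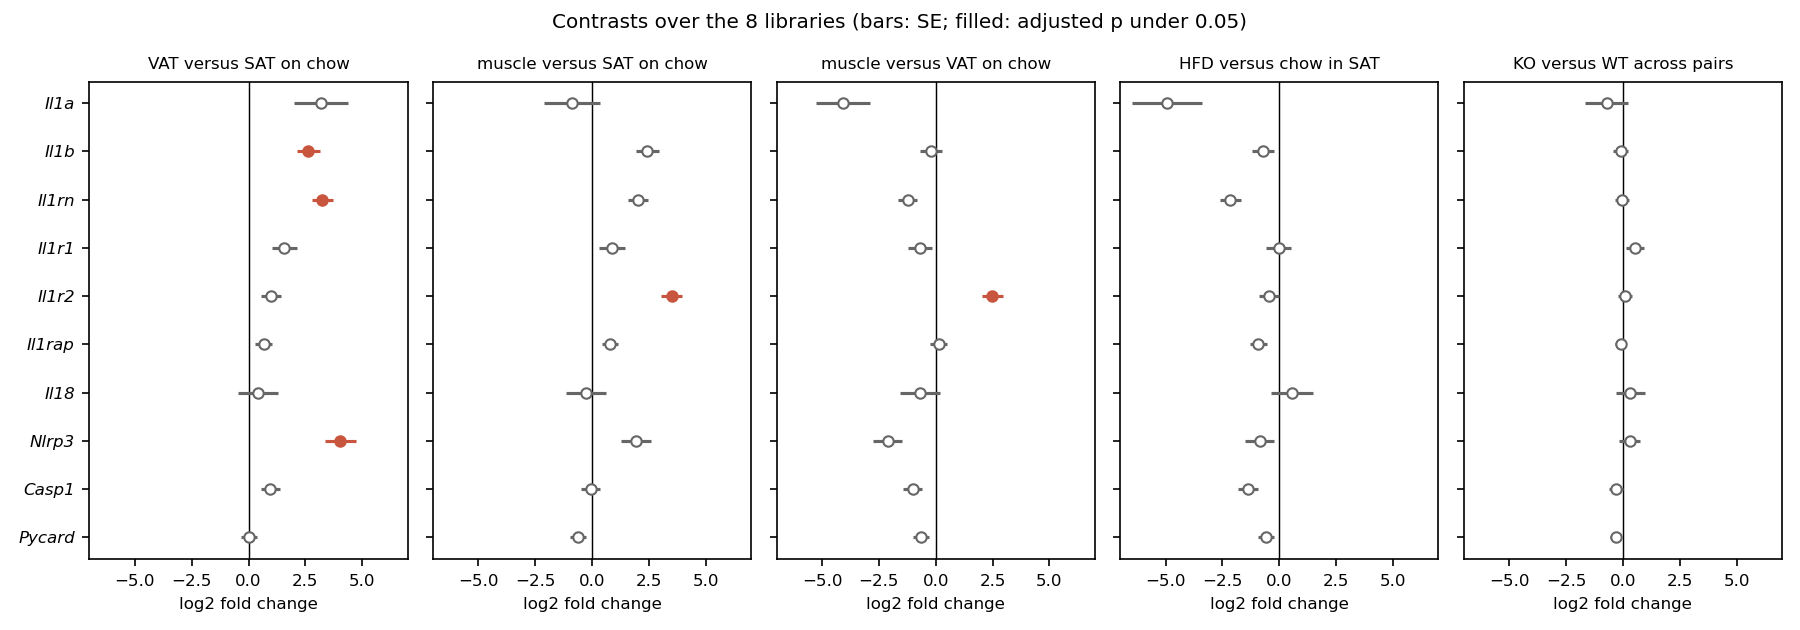
Log2 fold change of the 10 genes in each contrast over the 8 libraries, with SE as bars. Filled red points have an adjusted p under 0.05: *Il1b*, *Il1rn* and *Nlrp3* in VAT against SAT, and *Il1r2* in muscle against SAT and against VAT.

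**Figure D5:**
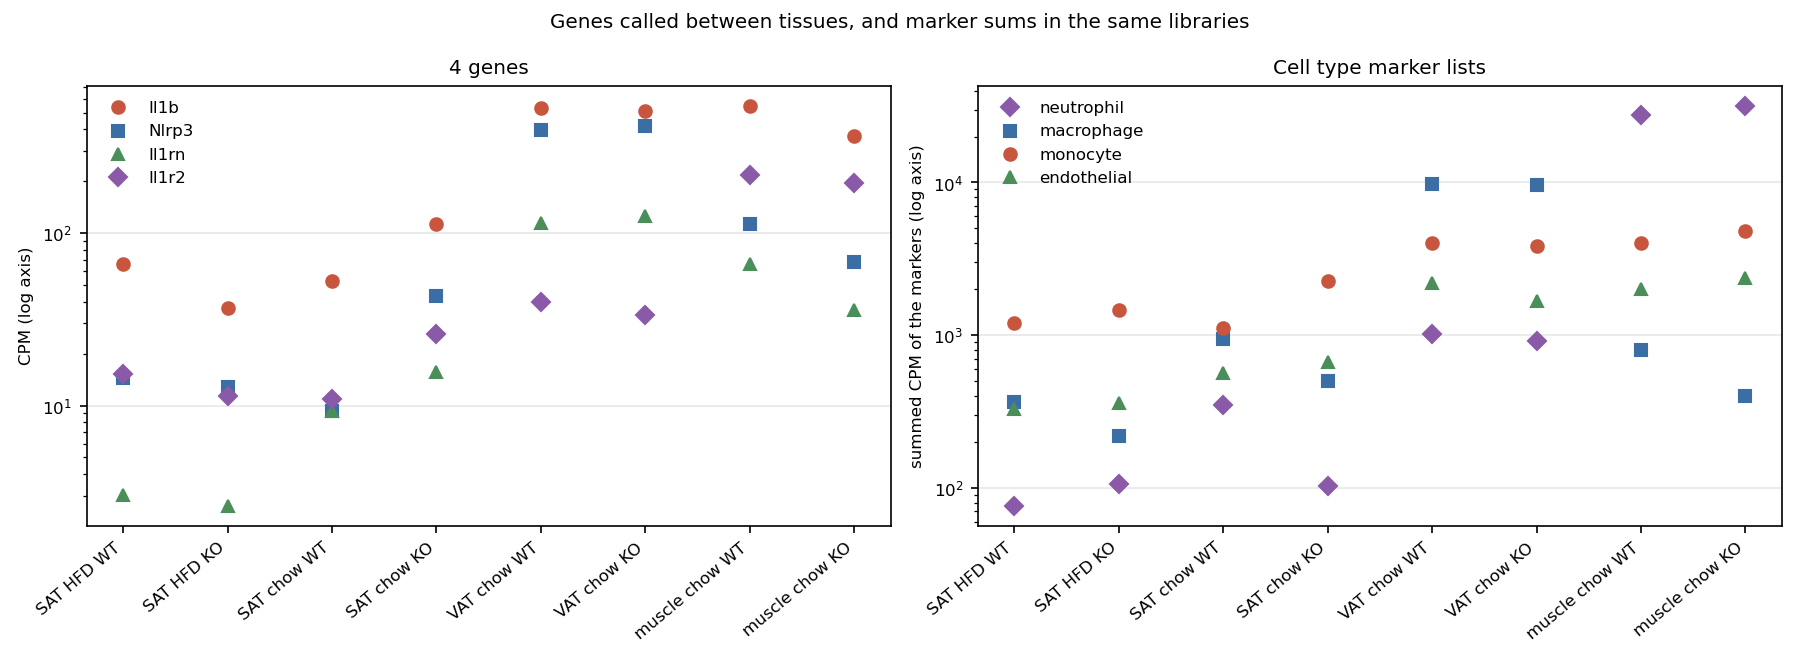
Left, CPM of the 4 genes called between tissues in each library. Right, summed CPM of neutrophil, macrophage, monocyte and endothelial markers in the same libraries, both on log axes. Neutrophil sums reach 27759 and 31712 CPM in muscle, and macrophage sums 9757 and 9614 CPM in VAT.

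The other genes of the pathway were taken from 6 lists. Of 15 other inflammasome sensors and regulators, 14 were tested, and 4 were called higher in VAT than in SAT and 0 lower, where 3.13% of all genes were higher and 1.87% lower. These were *P2rx7*, the ATP-gated channel that triggers NLRP3, at 5.90-fold (SE of the log2 fold change 0.343, adjusted p = 0.00983), *Mefv*, which encodes pyrin, at 5.42-fold, *Naip6* at 4.76-fold and *Naip5* at 3.76-fold. They were named after their values were seen, and the *Naip* genes are close copies among which reads may be split. The list's median log2 fold change was 1.76, against −0.13 over all genes. *P2rx7* was 7.40-fold lower in muscle than in VAT, the only member of that list called there. Of 6 caspases and gasdermins with *Ninj1*, *Ninj1*, needed for membrane rupture in lytic death, and *Casp4*, the sensor of intracellular lipopolysaccharide, were called higher in VAT than in SAT, at 8.09-fold and 5.23-fold. Both were also called lower in muscle than in VAT, at 4.32-fold and 5.97-fold.

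Among 8 other IL-1 family receptors and soluble inhibitors, 6 were tested. *Il1rl1*, the IL-33 receptor gene, was 11.6-fold higher in VAT than in SAT (log2 3.53, SE 0.520, adjusted p = 0.0133) and 16.3-fold lower in muscle than in VAT (log2 −4.02, SE 0.533, adjusted p = 0.0120), by edgeR's quasi-likelihood test. It had 2128 and 4172 counts in the VAT libraries labelled WT and KO, against 180 to 536 in the other 6. Of the other ligands, 2 of 6 were in the table and 1, *Il33*, was tested, with 27 to 170 counts and no call in the 5 contrasts. Of 12 genes of IL-1 receptor signalling, all were tested and 0 were called in any of the 5 contrasts. The list's median log2 fold changes were 0.24 for VAT against SAT, −0.07 for muscle against SAT and −0.12 for muscle against VAT, beside −0.13, −0.11 and 0.06 over all genes.

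The 15 IL-1 response genes, chemokines and other targets that IL-1 is known to induce, were all tested. In VAT against SAT, 3 were called higher and 1 lower, where 3.13% of all genes were called higher and 1.87% lower. The list median was 2.05, against −0.13 over all genes. *Cxcl2*, a neutrophil chemokine, was 35.7-fold higher (log2 5.16, SE 0.900, adjusted p = 0.0204), *Ccl2*, a monocyte chemokine, 16.5-fold (log2 4.04, SE 0.844, adjusted p = 0.0372) and *Vcam1*, an adhesion molecule of EC, 4.22-fold (log2 2.08, SE 0.314, adjusted p = 0.0134). *Mmp3*, a matrix protease, was 8.26-fold lower. *Lcn2*, which encodes a protein of neutrophil granules, was 121-fold higher in muscle than in SAT and 215-fold higher than in VAT, with 42992 and 35226 counts in muscle against 33 to 805 elsewhere. *Mmp3* was 9.57-fold lower in muscle than in SAT, and *Ccl2* was 40.5-fold lower in muscle than in VAT. Over all genes, 1.1% were called higher and 0.165% lower in muscle against SAT, and 0.99% and 1.03% against VAT. No gene of the 6 lists was called across the 4 pairs or between diets.

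Within the pairs, the response genes differed most in SAT on chow. There 10 of 14 scored response genes were beyond 2-fold higher in KO and 1 lower, with a median log2 ratio of 2.01, against 0.00 over all genes and a background of 19.1% higher. This list was chosen with earlier results of these data known, and whether IL-1 had a part in these differences was not tested. *Il6* went from 9 to 353 counts (log2 5.22, 4.36 to 6.44), *Csf3*, the neutrophil growth factor gene, from 4 to 83 (4.22, 2.97 to 6.29) and *Cxcl1* from 54 to 677 (3.64, 3.25 to 4.08). *Lcn2* was the one that was lower, from 805 to 143 counts (−2.49, −2.76 to −2.23). Of the other 5 lists in that pair, 5 genes were higher and 1 lower by the same rule. Those lists had 1 (ligands), 6 (receptors), 13 (sensors), 6 (caspases and gasdermins) and 12 (signalling) scored genes. Over all genes, 19.1% were higher and 11.5% lower, so such differences were not particular to these lists. The higher ones were *Il33*, a ligand gene, at 1.47 (1.05 to 1.93), *Il1rl1*, its receptor gene, at 1.253 (1.03 to 1.49), *Gsdme*, a gasdermin gene, at 1.82 (1.31 to 2.39), and the signalling genes *Irak2*, at 1.54 (1.41 to 1.68), and *Tab3*, at 1.32 (1.11 to 1.53). *Sigirr*, an inhibitory receptor gene, was the lower one, at −1.55 (−1.71 to −1.39). The 5 higher genes were named after their values were seen. In SAT on HFD, where 12.9% of all genes were higher and 10.9% lower, 0 of 14 scored response genes were higher and 2 lower. *Ccl2* was among the lower ones, at −1.75 (−2.14 to −1.38). *Casp12*, at −2.15 (−2.93 to −1.47), and *Il1rl2*, the IL-36 receptor gene, at −1.58 (−1.92 to −1.26), were the other named genes below in KO, and *Naip2*, at 2.18 (1.75 to 2.66), was above. In VAT only *Saa3* of the response genes was beyond 2-fold, lower in the library labelled KO with 201 and 25 counts. In muscle *Il6* (−1.58, −1.93 to −1.24) and *Cxcl1* (−1.47, −1.76 to −1.20) were lower in KO and *Mmp3* (1.75, 1.04 to 2.57) was higher.

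The genes whose pattern was most like that of each member were taken by Pearson's r of log2 CPM over the 8 libraries, among 9807 genes with a mean of at least 10 CPM. The 8 points are 4 tissues and diets in pairs, so r mainly describes the levels by tissue. *Il1b* was most like *Etv6* (r = 0.993), *Samsn1* and *Gda*, and *Il1rn* most like *Myadm* (0.996), *Sowahc* and *Nxt2*. *Nlrp3* was most like *Nfe2l2* (0.994), *Sorbs3* and *Dusp3*, and *Il1a* most like *Tmem135* (0.988), *Rnf185* and *Tollip*. Among the receptor genes, *Il1r1* was most like *Csrnp1* (0.994), *Mapk6* and *Spty2d1*, *Il1rap* most like *Cav1* (0.993), *Lmo7* and *Tbc1d8*, and *Il1r2* most like *Ppp1r3b* (0.989), *Anxa1* and *Ulbp1*. *Casp1* was most like *Tmem59* (0.985), *Tagln2* and *Gm13509*, and *Pycard* most like *Gltp* (0.975), *Galk2* and *Gbp2*. *Il18* had no such close match among these genes: its highest r was 0.912, with *Pibf1*, followed by *Pus10* and *Slc39a9*.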

How the data were processed

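The values are whole-number read counts per Ensembl gene in 8 libraries, as the authors deposited them, with no normalization. The submitters' processing notes name HISAT2 2.0.5 and the GRCm38 (mm10) genome. The counting program, the use of strand and the annotation release are not given in the sources used here. The labels give a column kit for RNA and a SMARTER mRNA library kit. Since every value is a count, its precision is set by depth, which ranged from 6214269 to 18855772 counts per library. Intervals and floors cover counting error only, since no molecular identifiers are described. All 10 genes lie at their coordinates in GENCODE M21.

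Counts were scaled by TMM over all genes (edgeR 4.0.16, R 4.3.3). Contrasts used edgeR's robust quasi-likelihood test on the 16971 genes that averaged 10 counts or more, with tissue and diet (4 levels) and genotype as terms (3 residual degrees of freedom), and Benjamini-Hochberg adjustment at 0.05 over all genes. The 2 libraries of a tissue and diet differ in genotype and stand in for replicates. The SE is the log2 fold change divided by the square root of F. Within a pair, the log2 ratio has a prior count of 0.5 and an exact conditional binomial (Clopper-Pearson) 95% interval (SciPy 1.17.1). Both procedures were also run on simulated counts, with results that are not given here. With 3 residual degrees of freedom, a gene that was not called may still differ.

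The 10 genes, 6 pathway lists and 13 marker lists were chosen with earlier results of these data known. The text names the 10 genes, *Tert*, the 3 genes most like each, and from the pathway lists the 3 highest and 3 lowest genes called in a contrast, or beyond 2-fold in a pair. Alternatives were DESeq2 1.42.0 size factors and its Wald test, library totals, other count filters, other terms, a prior count of 5, leaving out libraries or pairs, and subtraction of a gene length trend (100 bins). Promoter sequences are from RefSeq, where all 10 genes matched by symbol.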

Additional observations from a re-analysis of the deposited data

Results flagged for a closer look

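For 7 of the 10 genes, the counting interval of the KO to WT ratio lay wholly above 0 in one pair and wholly below 0 in another, with 1 library per genotype. The values are log2 ratios, the highest and the lowest of such pairs are given, and the difference between pairs was not tested. *Il1a* was at 2.22 in SAT on chow and −2.44 in muscle. *Il1b* was at 1.11 in SAT on chow and −0.85 in SAT on HFD, and *Il1r2* at 1.24 and −0.42 in the same pairs. *Il1rn* was at 0.76 in SAT on chow and −0.90 in muscle. *Nlrp3* was at 2.22 in SAT on chow and −0.72 in muscle, and *Il1r1* at 2.05 and −0.17. *Casp1* was at 0.31 in VAT, between libraries whose *Tert* counts go against the labels, and −1.03 in SAT on chow.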

How the results depend on the processing

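Testing all genes with at least 1 count gave 2 calls among the 10 genes for HFD against chow, 5 for VAT against SAT, 4 for muscle against SAT and 3 for muscle against VAT, where the text gives 0, 3, 1 and 1. Of all 29627 genes tested in that way, 317, 2100, 971 and 1159 were called, in the same order of contrasts. DESeq2's Wald test gave 2 for HFD against chow, 4 for VAT against SAT, 4 for muscle against SAT and 3 for muscle against VAT. It called 361, 2384, 1013 and 1264 of the 16971 genes, where the test of the text called 0, 849, 215 and 343. Dropping the genotype term gave 3 for muscle against SAT, DESeq2 size factors gave 0 for muscle against VAT, and leaving out the SAT chow pair gave 3 there. In those contrasts these settings called 338, 304 and 1183 of the 16971 genes, in that order. Leaving out 1 library at a time gave 0 to 6 calls for VAT against SAT, 0 to 5 for muscle against SAT and 0 to 3 for muscle against VAT; without WT SAT on chow, 3 were called in the last. The count for KO against WT was 0 under each of the alternatives run. In SAT on chow, 5 genes were beyond 2-fold with DESeq2 size factors, with library totals and without the trend on gene length, where the text gives 3. No fold change or ratio of a called gene turned direction with the scaling. The use of that trend for single ratios was chosen after seeing the data, and the cause of these changes was not tested. With 1 library per genotype and pair, depth limits *Il1a* most, with 0 and 2 counts in SAT on HFD.

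WT and KO were paired by tissue and diet in the comparison across pairs, and dropping that term also gave 0 calls among the 10 genes. The labels give the libraries no replicate numbers, so no block on replicate number was fitted.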
